A study of Mus musculus with 18 samples.

Results

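Embryoid bodies (EB) after 3 days of culture were set against adult mouse tissue in 4 samples on 6 arrays. They were chosen by title and product from the 10 samples and 18 arrays of the series. EB are the floating aggregates that embryonic stem cells form when they can no longer attach. The 3-day EB came from MES3, a single stem cell line grown out of a cultured C57BLxCBA blastocyst (inner cell mass). The parent cells grew on mouse embryonic fibroblasts inactivated with mitomycin C, in medium with serum, b-mercaptoethanol and LIF, the cytokine that holds mouse stem cells undifferentiated. To make EB, pieces of undifferentiated colonies were moved to low-adhesion plates in that medium without LIF and b-mercaptoethanol. No treatment, genotype change or sorting was named for either group. The 2 adult samples are labelled only as adult tissue cells, with no tissue, strain or age. The 2 samples of 3-day EB had 2 arrays each, which were averaged, and the 2 adult samples had 1 array each. All 6 arrays were of the UniSet Mouse 20K I product. EB replicate 3, another sample of 3-day EB, was measured on the other array product of the series. It entered no test and is used below only for whether a gene was above background.

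Pluripotent cells of the early embryo divide rapidly with a short G1 phase, and they keep the genes for replication, ribosome assembly and translation active. A small set of factors around Oct4, encoded by Pou5f1, holds them undifferentiated. Most cells of adult organs have left the cell cycle and carry the products of their own tissue, such as surfactant in lung, albumin in liver and protamines in sperm. A comparison of 3-day EB with adult tissue therefore covers both the embryonic and the adult programmes at once. Its counts do not date a change to the first 3 days of EB culture.

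Between 27.8 and 33.3% of gene spots lay above background on the 4 EB arrays, by the scanner's own marks, and 57.9 and 52.7% on the 2 adult arrays. Median spot over median negative control came to 2.16 to 2.58 for EB arrays, against 10.95 and 7.29 for adult arrays. The EB arrays were thus dimmer as a group. By the analysis date in the file headers, the EB arrays were analysed on the same day and the adult arrays on another. Analysis day and group therefore cannot be told apart. Across the probes of the genes tested below, the arrays of 1 EB sample correlated at 0.959 and 0.964. The arrays of different EB samples correlated at 0.945 to 0.947, the adult arrays at 0.965, and EB with adult arrays at 0.451 to 0.472. The genes tested include many on every adult array and no EB array, so the values hold for that selection only. Probes are not independent replicates, so these values only describe the arrays. Each tissue sample is a mixture, and fewer cells of a type cannot be told apart from less RNA per cell.

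Of 9742 genes tested, 5990 (61.5%) differed at a limma adjusted p under 0.05. In EB, 2790 genes (28.6%) were higher and 3200 (32.8%) lower, and 2243 and 2905 of these differed at least 2-fold. Before adjustment, 6401 genes had a p under 0.05. The median log2 difference, always given as EB minus adult, was -0.08, and the median size was 1.13. Sample values of the groups did not overlap for 82.1% of the genes. A gene entered the test if it was above background on every EB array or on every adult array. That let in 3475 genes found on every adult array and no EB array, against 130 of the opposite kind. Of the 3475, 2241 were lower in EB, 57 higher and 1177 did not pass; all 130 were higher. A gene let in only through the group where it is bright was likely to differ, so counts over such genes are no support for a direction. Among the 4561 genes above background on all 6 arrays, 2200 (48.2%) were higher and 593 (13%) lower in EB. That subset leans to genes higher in EB, and a fit of such genes alone (4565) had a median log2 difference of 0.685. On the normalized scale a signal below background in EB could exceed one above background in adult tissue, as for the 57 genes. Gfap, for example, was below background at 3.97 to 4.38 on the EB arrays and above it at 4.05 and 3.53 on the adult arrays. Counts within the subset are thus no neutral check of direction. The splits into higher and lower genes also turn on how the arrays are scaled. Higher genes made up 46.6% of the calls after quantile normalization, 50.2% when arrays were scaled on their 75th percentile, 28.7% after median centring and 27.1% with the authors' deposited values. Median centring moved the median of all genes to -0.56, so small differences are best read against that shift.

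**Figure D1:**
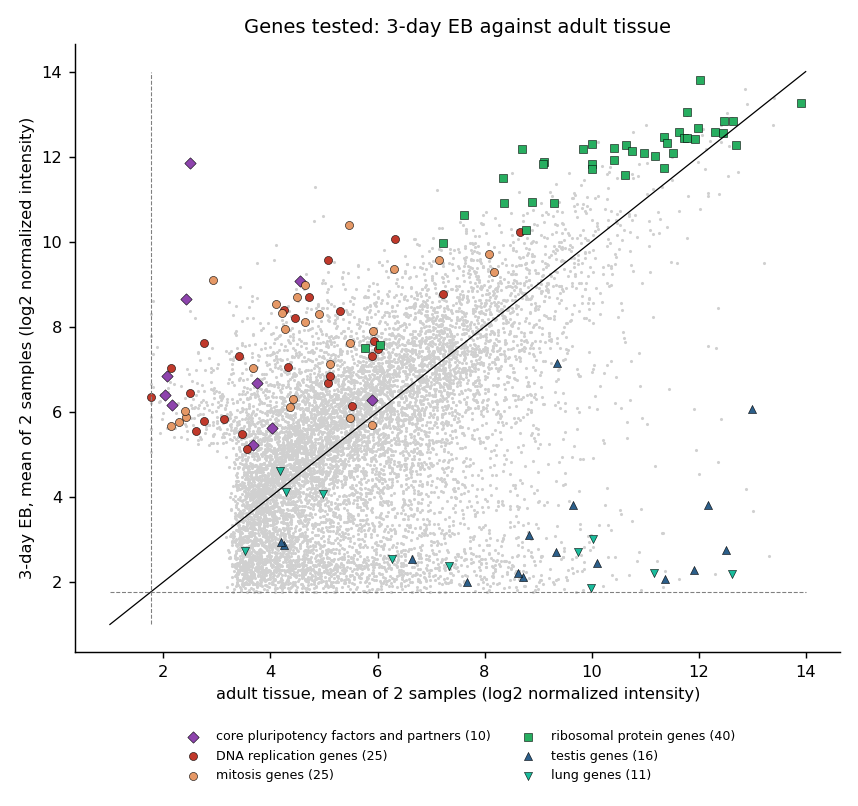
Mean log2 normalized intensity of each of the 9742 genes tested in 3-day EB (vertical axis, 2 samples) and in adult tissue (horizontal axis, 2 samples), with the members of 6 gene lists in colour. The solid line marks equal values and the dashed lines the floor of 1.77. Replication and core pluripotency genes and most mitosis genes lie above the line, most ribosomal protein genes crowd the bright end above it, and most testis and lung genes lie near the EB floor.

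Pluripotency genes had the highest median of the lists with 3 or more tested genes. Of the 10 tested members of the list of core pluripotency factors and their partners, 9 were higher in EB and none lower, with a median log2 difference of 4.17, beside -0.08 for all genes. Pou5f1 lay at 8.98, 9.24, 8.99 and 9.08 on the 4 EB arrays and at 4.72 and 4.39 on the adult arrays, on the log2 scale of normalized intensity. Every EB array was well above both adult arrays, a difference of 4.52 ± 0.38 (SE, adjusted p = 6.81e-05). Dppa5a, an RNA-binding protein of pluripotent and early germ cells, read 11.6, 11.4, 12.17 and 12.22 in EB and 2.1 and 2.88 in adult tissue. It was below background on both adult arrays, so its fold is only a lower bound, at least 439-fold higher in EB (adjusted p = 5.45e-06). Such a bound sets the mean of the bright group against, for each dim array, the higher of the probe's own signal and the lowest signal called above background there.

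Utf1 and Sall4 of the core list were also below background on both adult arrays, so their folds are bounds. Utf1, a chromatin-bound factor of stem cells, was at least 47.8-fold higher (EB mean 8.65 ± 0.27, adult mean 2.42 ± 0.61, SD, n = 2 samples each, adjusted p = 8.17e-05). Sall4, a zinc finger factor that works with Oct4, was at least 9.96-fold higher (6.39 ± 0.06 in EB and 2.03 ± 0.18 in adult tissue, adjusted p = 1.13e-05). The member that did not pass was Tdgf1, the Nodal co-receptor Cripto, at 5.75, 6.17, 6.57 and 6.57 in EB and 6.25 and 5.56 in adult tissue (difference 0.36, adjusted p = 0.395). It is named here because it was the single exception. Sox2 lay below background on all 4 EB arrays and both adult arrays and was not tested, although both arrays of the third EB sample had it above background. Nanog had no probe that could be named. Of the list's 10 tested genes, 5 were above background on every EB array and no adult array, and of the 4 above background on all 6 arrays 3 were higher.

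Genes of the naive state, the condition of the preimplantation epiblast, were also higher on balance. In that list 8 of 11 tested genes were higher, 1 was lower and 2 did not pass (median 2.74), and 5 of the 6 above background on all 6 arrays were higher. Dppa3, a maternal protein that guards DNA methylation in the early embryo, read 8.81, 8.23, 8.27 and 7.83 in EB, against the floor of 1.77 on both adult arrays. It was at least 37.1-fold higher (adjusted p = 3.19e-05). Fbxo15, a known target of Oct4, stood at 8.73 ± 0.03 in EB and 3.66 ± 0.30 in adult tissue, a difference of 5.07 ± 0.41 (adjusted p = 5.71e-05). Tex19.1, which restrains retrotransposons in germ and stem cells, differed by 4.27 ± 0.37 (adjusted p = 7.42e-05). Zfp42, the marker also called Rex1, was at least 9.87-fold higher (adjusted p = 0.000484), with the EB samples at 5.69 and 7.05.

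The formative and primed epiblast list was mixed, with 3 of 9 tested genes higher, 1 lower and 5 not passing (median 0.71). Otx2, a homeobox factor of the epiblast, read 6.8 and 6.92 in EB replicate 1 and 7.85 and 7.92 in replicate 2. On the adult arrays it lay at 1.77 and 1.82, so that it was at least 19.7-fold higher in EB (adjusted p = 9.14e-05). Dnmt3b, which lays down new DNA methylation, differed by 4.35 ± 0.41 (adjusted p = 0.000103). Fgf5, a marker of primed epiblast, was below background on every EB array and differed by 0.49 (adjusted p = 0.251). Enpp2, which encodes autotaxin, was at least 12.1-fold lower in EB (adjusted p = 8.3e-06).

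Signalling and germ layer lists held few tested genes. In the Nodal, Lefty and BMP list 1 of 8 tested genes was higher and 7 did not pass. Among endoderm transcription factors none of 3 passed, and Gata4 differed by 0.31 (adjusted p = 0.398), a sign that turned after median centring (-0.26). In the primitive streak and early mesoderm list 1 of 6 was higher, 2 were lower and 3 did not pass. Its lower members included Mesp1, a factor of the first heart and mesoderm cells, at 1.77 to 2.22 on the EB arrays and 9.18 and 9.40 on the adult arrays. Mesp1 was at least 23.7-fold lower in EB (adjusted p = 3.2e-06). T, Gata6 and Sox17 were not tested.

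Among germline, imprinted and X-linked homeobox genes, Rhox5, a homeobox gene of embryonic and gonadal cells, lay at 7.5 ± 0.37 in EB and 2.91 ± 1.16 in adult tissue (4.59 ± 0.54, adjusted p = 0.000297), and was above background on 1 of the 2 adult arrays. Kit, the receptor of stem cell factor, differed by 2.90 ± 0.23 (adjusted p = 5.17e-05) in a germline list with 3 of 9 higher and 3 lower. The vasa helicase gene Ddx4 of that list was lower (adjusted p = 0.00131), but above background on only 1 of the 4 EB arrays. Of 13 imprinted genes tested, 5 were higher, 2 lower and 6 did not pass, but after median centring 4 were higher and 6 lower. Phlda2, a growth-restraining gene of the placenta, differed by 4.44 ± 0.37 (adjusted p = 6.05e-05), with 3 EB arrays in use because 1 spot was set aside. The noncoding RNA gene Meg3 was lower, at least 1.67-fold (adjusted p = 0.00333).

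Genes of DNA replication and mitosis were higher in EB in nearly every tested member. In the replication list 24 of 25 tested genes were higher in EB and none lower (median 2.94), and in the mitosis list 23 of 25 were higher and none lower (median 3.39). Restricted to genes above background on all 6 arrays, the counts were 14 of 15 and 18 of 20, beside 48.2% for all such genes. The Mcm genes encode the helicase that opens DNA at replication origins. Mcm3 read 9.55, 9.56, 9.58 and 9.65 in EB and 5.03 and 5.13 in adult tissue, a difference of 4.50 ± 0.24 (adjusted p = 9.98e-06). Mcm5 lay at 7.61 ± 0.03 in EB and 2.75 ± 0.13 in adult tissue and was at least 23.3-fold higher (adjusted p = 1.11e-05). Mcm2 was at least 9.75-fold higher (adjusted p = 1.11e-05), and Orc6, of the complex that marks origins, differed by 3.99 ± 0.24 (adjusted p = 1.72e-05).

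The mitotic genes covered the checkpoint, the centromere and the chromosomes themselves. Mad2l1, the spindle checkpoint protein, read 8.59, 8.5, 8.51 and 8.57 in EB and 4.22 and 3.99 in adult tissue (4.43 ± 0.23, adjusted p = 9.82e-06). Cenpa, the histone variant of centromeres, differed by 4.12 ± 0.26 (adjusted p = 1.97e-05), and Ccna2, cyclin A2, by 3.48 ± 0.24 (adjusted p = 2.95e-05). Ndc80, which ties kinetochores to microtubules, was at least 6.42-fold higher (adjusted p = 2.41e-05). Top2a, the topoisomerase that untangles sister chromatids, lay at 10.39 ± 0.04 in EB and 5.46 ± 0.71 in adult tissue (4.93 ± 0.35, adjusted p = 3.1e-05). Mybl2, the B-Myb factor of G2 and mitosis genes, was at least 65.1-fold higher (adjusted p = 6.84e-05). E2f1, an activator of S-phase genes, differed by 2.50 ± 0.23 (adjusted p = 9.93e-05).

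Promoters of 4 of these genes are shown because the lists differ in the short motifs they carry. E2F factors bind sites such as TTTGGCGC and TTTCGCGC, and TTTGAA is the core of the cell cycle homology region, an element of G2 and mitosis genes. RefSeq windows of 250 bases before to 50 after the gene start (build GRCm38.p6) were at hand for 29 of 35 replication genes and 30 of 36 mitosis genes. Capitals mark the E2F-type motif in Mcm3 and Mcm5 and TTTGAA, on either strand, in Cenpa and Ndc80. The windows lie at chr1:20820263-20820562 (minus strand) for Mcm3, chr8:75109259-75109558 (plus) for Mcm5, chr5:30666636-30666935 (plus) for Cenpa and chr17:71526808-71527107 (minus) for Ndc80.
Mcm3: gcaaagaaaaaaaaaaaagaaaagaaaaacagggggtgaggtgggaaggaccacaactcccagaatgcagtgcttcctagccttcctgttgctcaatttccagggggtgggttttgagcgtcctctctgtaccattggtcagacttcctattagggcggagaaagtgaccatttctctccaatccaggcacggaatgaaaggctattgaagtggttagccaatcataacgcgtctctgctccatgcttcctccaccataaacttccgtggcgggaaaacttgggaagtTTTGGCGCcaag
Mcm5: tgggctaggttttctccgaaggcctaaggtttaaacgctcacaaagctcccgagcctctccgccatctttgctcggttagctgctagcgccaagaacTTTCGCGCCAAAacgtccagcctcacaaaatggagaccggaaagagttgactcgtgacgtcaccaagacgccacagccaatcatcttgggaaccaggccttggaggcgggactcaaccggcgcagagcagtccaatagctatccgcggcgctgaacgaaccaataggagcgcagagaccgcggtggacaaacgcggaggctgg
Cenpa: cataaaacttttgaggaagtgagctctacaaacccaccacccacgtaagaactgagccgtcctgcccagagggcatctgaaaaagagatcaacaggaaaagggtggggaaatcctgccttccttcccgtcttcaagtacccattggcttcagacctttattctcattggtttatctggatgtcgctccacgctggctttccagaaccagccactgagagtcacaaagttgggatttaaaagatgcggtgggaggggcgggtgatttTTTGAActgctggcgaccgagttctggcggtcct
Ndc80: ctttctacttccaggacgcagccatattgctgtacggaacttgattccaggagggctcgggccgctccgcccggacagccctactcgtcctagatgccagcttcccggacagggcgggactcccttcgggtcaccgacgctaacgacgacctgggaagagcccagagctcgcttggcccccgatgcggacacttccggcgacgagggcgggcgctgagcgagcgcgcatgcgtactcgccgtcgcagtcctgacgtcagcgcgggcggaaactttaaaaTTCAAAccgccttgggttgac

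In Mcm5 the capitals join 2 overlapping matches on opposite strands. TTTGGCGC or TTTCGCGC, searched on both strands, stood in 8 of 29 replication windows (27.6%) and 5 of the 21 whose gene was higher in EB, against 1 of 30 mitosis windows (3.33%) and 0.833% of all 27025 windows. TTTGAA stood in 20 of 30 mitosis windows (66.7%), 4 of 29 replication windows (13.8%) and 18.1% of all windows. All 20 of these mitosis windows had it within 50 bases of the gene start, where 4.92% of all windows did. Among mitosis genes higher in EB the count was 14 of 19. Among the 6837 windows of tested genes the shares were 1.33% for the E2F-type motif and 12.9% for TTTGAA. A match describes letters, not a bound site.

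**Figure D2:**
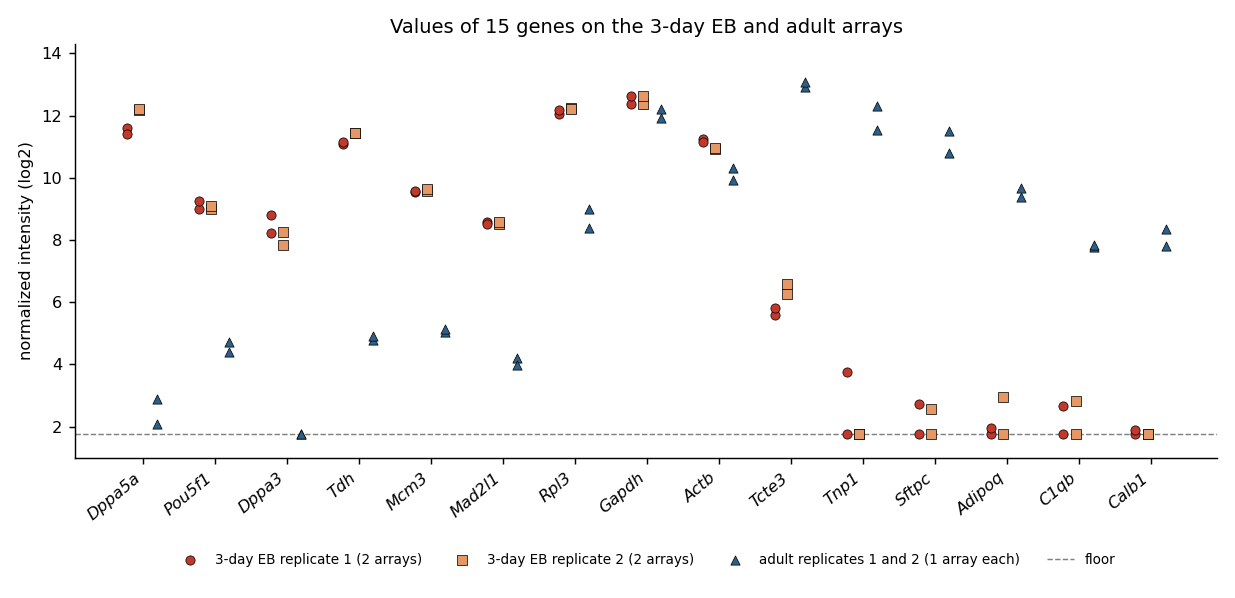
Log2 normalized intensity of 15 genes on the 4 arrays of 3-day EB (circles and squares, 2 samples) and the 2 adult arrays (triangles). Dppa5a, Pou5f1, Dppa3, Tdh, Mcm3, Mad2l1 and Rpl3 lie higher on every EB array, Gapdh lies close on all 6 arrays, and Tcte3, Tnp1, Sftpc, Adipoq, C1qb and Calb1 lie higher on both adult arrays, with several EB points at the floor of 1.77.

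DNA repair and p53 genes followed the cell cycle lists. Of 14 tested repair genes 12 were higher and none lower (median 2.69). Of these 14, 4 were on every EB array and no adult array, and of the 8 on all 6 arrays 7 were higher. Msh6, a mismatch repair protein, differed by 4.58 ± 0.29 (adjusted p = 2.17e-05). In the p53 list 8 of 10 were higher and none lower (median 1.81). Ccng1, the p53 target cyclin G1, read 10.4, 10.69, 10.62 and 10.69 in EB and 5.33 and 4.65 in adult tissue (5.61 ± 0.29, adjusted p = 9.51e-06). Bax, which promotes cell death, differed by 3.64 ± 0.41 (adjusted p = 0.000237) and was above background on 1 adult array.

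In the list of chromatin remodelling and histone modifying genes 18 of 21 tested were higher and none lower (median 1.59), and all 17 above background on the 6 arrays were among them. The list does not hold every such gene: the remodelling gene Smarca2, which is not in it, was lower. Hdac2, a histone deacetylase, lay at 7.17 ± 0.13 in EB and 3.92 ± 0.09 in adult tissue (3.25 ± 0.24, adjusted p = 3.65e-05), and Kdm1a, which removes methyl groups from histone H3, differed by 2.90 ± 0.25 (adjusted p = 6.95e-05). In the Polycomb list 7 of 14 were higher and 3 lower. Of these 14, 5 were on both adult arrays and no EB array, so the filter let them in through the adult group. Of the 7 on all 6 arrays 6 were higher and none lower. Suz12 and Eed, core subunits of the complex that methylates lysine 27 of histone H3, differed by 3.64 ± 0.25 (adjusted p = 2.97e-05) and 3.21 ± 0.32 (adjusted p = 0.000135). Bmi1, a subunit of the other Polycomb complex, read 1.77 to 2.80 on the EB arrays and 7.6 and 6.53 on the adult arrays and was at least 5.08-fold lower in EB (adjusted p = 0.000122). All 4 tested DNA methylation enzymes were higher. After median centring 2 of these enzymes and 3 Polycomb genes were higher, and with the authors' deposited values 10 chromatin genes were. Tdg, the glycosylase that removes thymine mispaired with guanine, differed by 2.77 ± 0.23 (adjusted p = 6.21e-05).

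Most genes for making and assembling ribosomes were higher. Of 40 ribosomal protein genes tested, 29 were higher, 1 lower and 10 did not pass (median 1.44). Rpl3 read 12.04, 12.17, 12.25 and 12.21 in EB and 8.99 and 8.40 in adult tissue (3.47 ± 0.27, adjusted p = 5.07e-05). Rpl27 differed by 3.14 ± 0.23 (adjusted p = 3.49e-05) and Rps7 by 3.03 ± 0.23 (adjusted p = 3.93e-05). The lower member was Rpl41, named here as the single exception, at 13.18 to 13.39 on the EB arrays and 13.91 on both adult arrays (-0.65 ± 0.24, adjusted p = 0.0457). No gene of the list was lower after median centring, under 75th percentile scaling or without any 1 of the 4 samples, so this call did not hold there. Rpl41 was the brightest of the list in adult tissue, and many ribosomal protein genes have near-identical pseudogene copies that a probe may not separate. In the ribosome biogenesis list 19 of 22 were higher and 1 lower (median 2.84). Of these 22, 4 were on every EB array and no adult array, and 1 was on both adult arrays and no EB array. The filter let these in through the group where they are bright. Of the 16 above background on every array of both groups, 14 were higher and none lower. Ncl, the nucleolar protein nucleolin, stood at 11.22 ± 0.09 in EB and 7.12 ± 0.07 in adult tissue (4.1 ± 0.23, adjusted p = 1.17e-05). Nop58, of the particle that methylates ribosomal RNA, was at least 9.49-fold higher (adjusted p = 2.02e-05).

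Translation, splicing and protein quality genes were mostly higher as well. Among translation factors 16 of 19 were higher and none lower (median 2.49). Eif4a1, the helicase that unwinds mRNA ends, read 10.18, 10.28, 10.76 and 10.7 in EB and 4.26 and 5.36 in adult tissue (5.67 ± 0.39, adjusted p = 2.96e-05). Of 31 splicing genes 26 were higher and 1 lower (median 1.67). Snrpb, a core protein of the spliceosome, differed by 3.66 ± 0.24 (adjusted p = 2.28e-05). All 26 tested proteasome genes were above background on the 6 arrays, and 22 of them were higher and none lower (median 1.56). Psmd14, which removes ubiquitin chains, lay at 9.0 ± 0.04 in EB and 5.35 ± 0.13 in adult tissue (3.65 ± 0.23, adjusted p = 2.02e-05). With the authors' deposited values 11 proteasome genes and 11 chaperone genes were higher.

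Chaperones had 18 of 24 members higher and 1 lower (median 1.64). Hspd1, the mitochondrial chaperonin Hsp60, read 8.55, 8.49, 9.28 and 9.39 in EB and 3.05 and 3.8 in adult tissue (5.50 ± 0.37, adjusted p = 2.57e-05). The lower member was Hspe1, Hsp10, which closes the Hsp60 chamber, and it is named here because it was the exception. It read 7.16, 6.94, 7.73 and 7.79 in EB and 9.65 and 10.25 in adult tissue (-2.55 ± 0.33, adjusted p = 0.000501). The partners thus differed in opposite directions on all arrays. Cct5 and Cct6a, subunits of the cytosolic chaperonin, differed by 2.82 ± 0.23 (adjusted p = 5.52e-05) and 4.17 ± 0.29 (adjusted p = 3.1e-05).

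**Figure D3:**
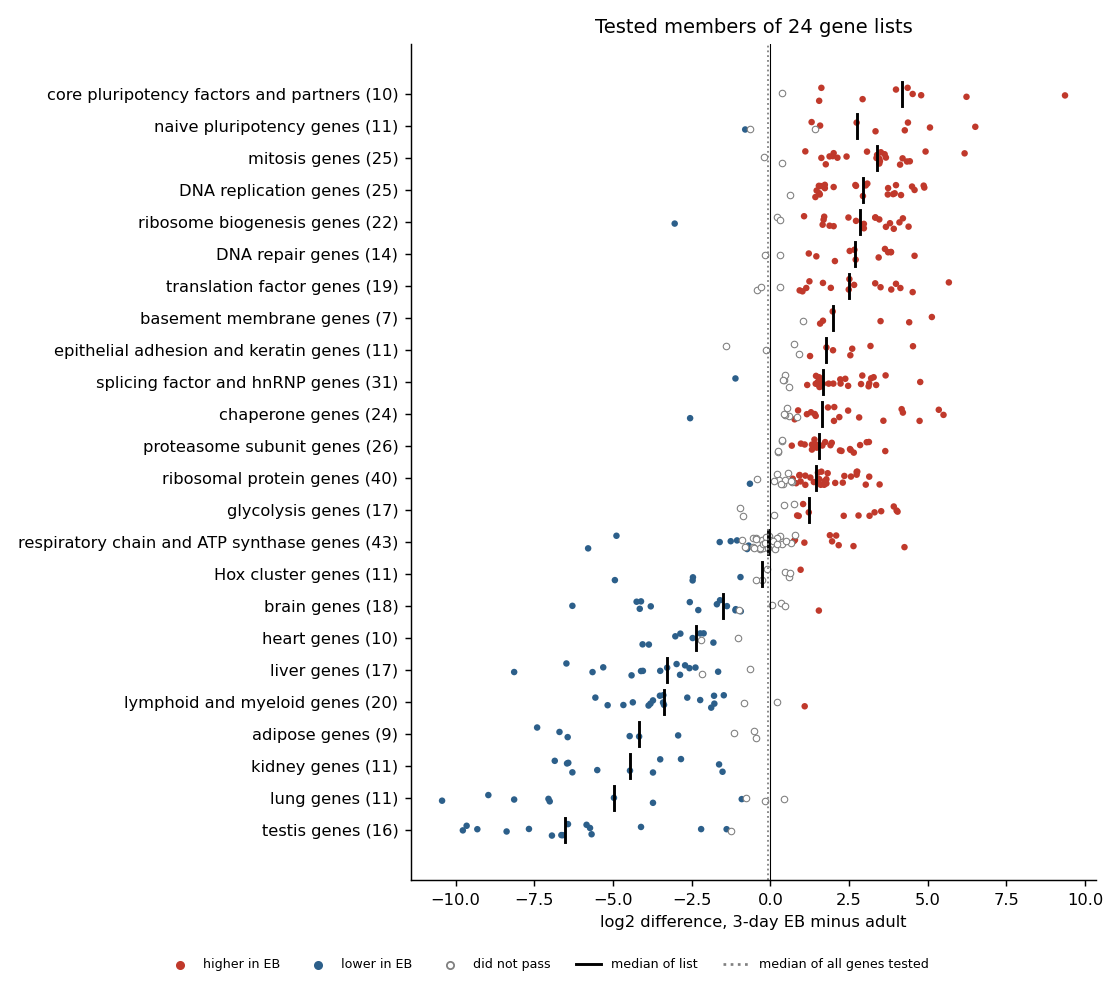
Log2 difference, 3-day EB minus adult, of each tested member of 24 gene lists, with the number tested in brackets. Red points were higher and blue points lower in EB, open points did not pass, black bars mark list medians and the dotted line the median of all genes (-0.08). List medians run between 4.17 for core pluripotency and -6.51 for testis.

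Metabolic genes split by pathway. Tdh, threonine dehydrogenase, which feeds one-carbon metabolism in mouse stem cells, had the largest rise among genes with 1 symbol above background on all 6 arrays. It read 11.08, 11.16, 11.45 and 11.45 in EB and 4.77 and 4.9 in adult tissue (6.45 ± 0.30, an 87.6-fold difference, adjusted p = 6.66e-06). In its list 7 of 9 were higher and none lower (median 1.9), and Gart, of purine synthesis, was at least 11.4-fold higher (adjusted p = 4.33e-05). Of 17 tRNA synthetase and amino acid genes 13 were higher (median 1.95), among them Phgdh, the first enzyme of serine synthesis, at least 9.45-fold (adjusted p = 6.43e-05). Of these 17, 4 were on every EB array and no adult array, and of the 9 on all 6 arrays 6 were higher. In glycolysis 12 of 17 were higher and none lower (median 1.22). Hk2, hexokinase 2, differed by 3.15 ± 0.23 (adjusted p = 3.73e-05), and Slc2a1, the glucose carrier Glut1, by 4.01 ± 0.31 (adjusted p = 4.76e-05). Gapdh of that list did not pass (0.44, adjusted p = 0.152). After median centring 8 glycolysis genes were higher and 2 lower.

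Respiratory chain genes did not follow. Of 43 tested, 9 were higher, 7 lower and 27 did not pass, and their median of -0.08 equalled that of all genes. Cox8b, the heart and muscle form of a cytochrome oxidase subunit, read 1.99 to 2.68 on the EB arrays and 7.95 and 8.36 on the adult arrays, at least 10.8-fold lower in EB (adjusted p = 6.66e-06). The ATP synthase subunit gene Atp5a1 was higher (2.64 ± 0.27, adjusted p = 0.000154). After median centring 6 of these genes were higher and 18 lower, so their balance turned on the scaling. Fatty acid oxidation and citric acid cycle genes had 7 of 22 higher and 7 lower. Fh1, fumarase, differed by 2.44 ± 0.25 (adjusted p = 0.00016). Glutathione and detoxification genes had 9 of 27 higher and 9 lower, shares near the 28.6% and 32.8% of all genes. After median centring they had 5 higher and 14 lower. Gpx3, the glutathione peroxidase that kidney releases to plasma, lay at 6.53 ± 0.36 in EB and 11.45 ± 0.32 in adult tissue (-4.92 ± 0.41, adjusted p = 6.35e-05).

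Adhesion genes of epithelia and of the basement membrane were higher. Of 11 epithelial genes 7 were higher and none lower (median 1.78). Cdh1, E-cadherin, read 8.56, 8.36, 7.52 and 8.34 in EB and 3.6 and 3.74 in adult tissue (4.53 ± 0.37, adjusted p = 5.72e-05). Epcam differed by 3.18 ± 0.31 (adjusted p = 0.000121). In the basement membrane list 6 of 7 were higher (median 1.98). Of these 7, 2 were let in through the EB group, on every EB array and no adult array, and of the 4 on all 6 arrays 3 were higher. Nid2, nidogen 2, which links laminin to collagen IV, lay at 8.49 ± 0.28 in EB and 3.35 ± 0.17 in adult tissue (5.13 ± 0.29, adjusted p = 1.3e-05), with 1 adult array above background. Lamb1, a laminin chain, was at least 8.06-fold higher (adjusted p = 5.59e-05). The matrix genes of fibroblasts went the other way, with none of 19 higher, 10 lower and 9 not passing (median -1.87). Of these 19, 8 were on both adult arrays and no EB array, so the filter let them in through the adult group. Of the 4 on all 6 arrays 2 were lower. Col6a2, a collagen VI chain, was above background on all arrays, at 5.86 ± 0.88 in EB and 10.94 ± 0.21 in adult tissue (-5.08 ± 0.42, adjusted p = 5.89e-05).

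The adult arrays carried genes of many organs at once. Apart from the 2 tested red blood cell genes (median -10.02), testis genes had the lowest median, with 15 of 16 tested genes lower, none higher and a median of -6.51. Of these 16, 14 were above background on both adult arrays and no EB array, so the filter let them in through the adult group. Tnp1, a transition protein that replaces histones in spermatids, read 1.77, 3.77, 1.77 and 1.77 in EB and 11.53 and 12.3 in adult tissue. It was at least 146-fold lower in EB (adjusted p = 5.75e-06). Prm2, protamine 2, was at least 222-fold lower (adjusted p = 1.66e-05) and Smcp, of sperm mitochondria, at least 176-fold (adjusted p = 4.11e-06). Tcte3, a dynein light chain, was above background in both groups, at 5.58, 5.82, 6.26 and 6.59 in EB and 12.92 and 13.08 in adult tissue, the largest fall of that kind (-6.94 ± 0.39, adjusted p = 1.26e-05). The sperm surface gene Spa17 came next (-6.59 ± 0.33, adjusted p = 8.58e-06).

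The other tissue lists were let in mostly the same way: 10 of 11 lung, 10 of 11 kidney, 14 of 17 liver, 18 of 20 lymphoid and myeloid, 15 of 18 brain and 6 of 9 fat genes were on both adult arrays and no EB array. Their counts and medians, with EB values at or near the floor, are descriptions only. Lung genes formed another bright group, with 8 of 11 tested genes lower and none higher (median -4.97). Sftpc, surfactant protein C, read 1.77, 2.72, 2.56 and 1.77 in EB and 10.81 and 11.51 in adult tissue, at least 86.8-fold lower in EB (adjusted p = 5.34e-06). Scgb1a1, the secretory protein of club cells, was at least 238-fold lower (adjusted p = 3.17e-06). Cyp2f2, a cytochrome P450 of club cells and liver, was at least 38.6-fold lower (adjusted p = 5.07e-06). Another 3 lung genes did not pass.

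Kidney, liver and fat genes had no member that was higher in EB. All 11 tested kidney genes were lower (median -4.46). Fxyd2, a regulator of the kidney sodium pump, stood at 5.10 ± 0.18 in EB and 11.96 ± 0.18 in adult tissue (-6.85 ± 0.27, adjusted p = 5.07e-06), with 3 of 4 EB arrays above background, and the kidney cadherin gene Cdh16 was at least 9.21-fold lower (adjusted p = 2.27e-05). Of 17 liver genes 15 were lower (median -3.28), among them Mup1, a major urinary protein, at least 14.2-fold (adjusted p = 6.35e-06). Alb, albumin, lay at 1.77, 1.77, 1.77 and 2.75 in EB and only at 4.67 and 5.32 in adult tissue (at least 1.21-fold lower, adjusted p = 0.000172). Of 9 fat genes 6 were lower (median -4.17). Adipoq, the hormone adiponectin, was at least 27.9-fold lower (adjusted p = 5.2e-06).

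Brain, immune and muscle lists were mostly lower in EB too. Of 18 brain genes 13 were lower and 1 higher (median -1.49). Snap25, of the synaptic fusion machinery, read 3.57, 5.46, 4.09 and 4.49 in EB and 8.63 and 8.68 in adult tissue (adjusted p = 1.16e-05), and only 1 of the EB arrays had it above background, so the size of the difference is not given. Calb1, a calcium buffer of neurons and kidney tubules that stands in both lists, was at least 10.3-fold lower (adjusted p = 6.03e-06). Among 20 lymphoid and myeloid genes 17 were lower and 1 higher (median -3.39). C1qb, a complement protein made by macrophages, was at least 8.51-fold lower (adjusted p = 6.2e-06), and Cd74, the invariant chain of class II antigen presentation, at least 4.77-fold (adjusted p = 1.7e-05). Heart had 8 of 10 lower (median -2.35), skeletal muscle 6 of 11 (median -2.29), and the endothelial list 4 of 6 (median -2.38). On both adult arrays and no EB array were 6 of the 10 heart, 6 of the 11 skeletal muscle and all 6 endothelial genes. These counts and medians too are descriptions only. Of 11 Hox genes 1 was higher and 4 were lower. The lower ones included Hoxa5, at least 8.54-fold lower on the 3 EB arrays with a usable spot (adjusted p = 1.28e-05). Of these 11 Hox genes, 6 were let in through the adult group, on both adult arrays and no EB array. Of the 3 on all 6 arrays 1 was higher and none lower. The Hox median of -0.26 turned to 0.36 under 75th percentile scaling.

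Globin probes need care. Hba-a1, an alpha globin of adult red cells, read 3.0 to 4.53 on the EB arrays and 13.18 and 12.84 on the adult arrays, at least 313-fold lower in EB (adjusted p = 0.000185). A probe annotated to Hbb-y, the embryonic beta globin, was at 13.09 and 13.52 on the adult arrays, but the other probes annotated to that gene lay at 5.09 and 5.46 and at 1.77 and 1.93. The probes annotated to Hbb-y thus disagree. The brightest of them may read another gene, and its fold is left out.

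The other array product showed many of the adult-only genes in EB. Of the genes lower in EB and on no EB array of the comparison, 2230 had a probe on the other product, and 1336 of them (59.9%) were above background on both arrays of EB replicate 3. On that product 66.9 and 67.4% of gene spots were above background. Of all 9716 tested genes with such a probe 87.7% were above background there, and of the 2786 genes higher in EB 97.1% were. Scgb1a1, Sftpc, Cdh16, Adipoq and C1qb were below background on both arrays of that sample. Prm2, Tnp1, Smcp, Calb1, Hba-a1 and Hoxa5 were above it on both. Of the 12 lung genes compared, 5 were above background on both arrays of EB replicate 3, and of the 26 brain genes 22 were.

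**Figure D4:**
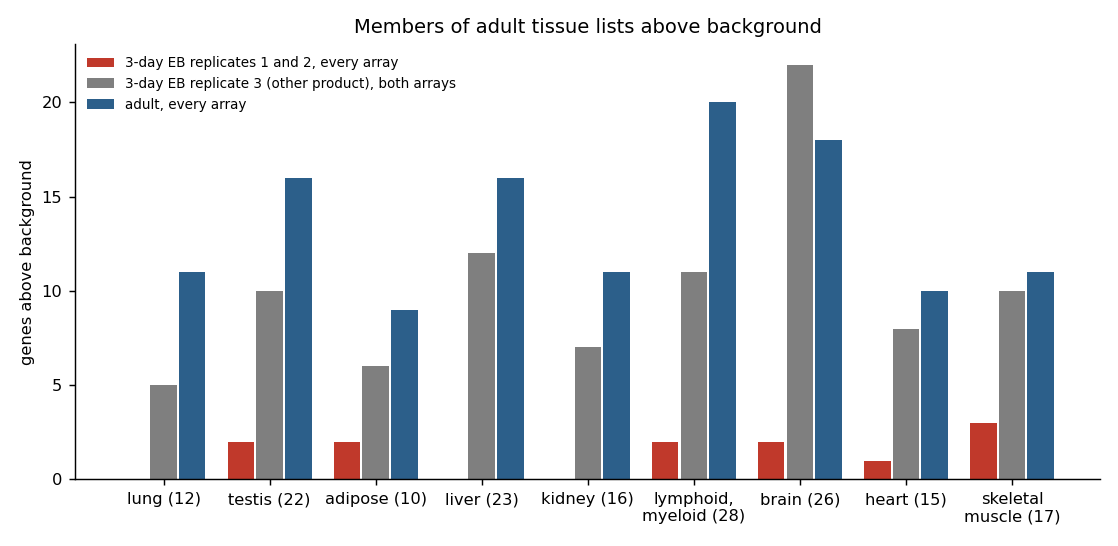
Number of members of 9 adult tissue lists above background on every array of 3-day EB replicates 1 and 2, on both arrays of EB replicate 3 on the other product, and on both adult arrays; brackets give the members with a probe on both products. No lung, liver or kidney gene is above background on all 4 EB arrays, while EB replicate 3 has 5, 12 and 7.

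Defining markers were checked for both labels. Of 6 pluripotent cell markers with a probe, 5 were above background on every EB array and 2 on both adult arrays, and their summed intensity was 3926 and 5918 in the EB samples and 118 and 91 in the adult samples. Sox2 was the one missing in EB. Of 3 testis markers and 4 lung markers all were above background on both adult arrays, with summed intensities of 7929 and 13170 and of 8478 and 10584 there. The sums in the EB samples were 17 and 26 for testis and 45 and 36 for lung, but both arrays of EB replicate 3 had all 3 testis markers above background. Of the 4 brain markers 3 were above background on both adult arrays. Not every marker was higher there. The brain marker Gfap read 4.05 and 3.53 in the adult samples and 4.18 and 4.11 in the EB samples. The lung marker Sftpb read 4.57 and 3.79 in the adult samples and 4.72 and 4.52 in the EB samples. Markers of more than 1 organ were thus above background on the adult arrays, for which the labels name no tissue.

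The largest rises outside the lists included genes of the egg and early embryo. Ooep, of the maternal complex beneath the egg cortex, read 8.18, 8.34, 8.99 and 8.87 in EB and 1.83 and 1.77 in adult tissue, at least 46-fold higher (adjusted p = 1.49e-05). Tcstv1, known from cells resembling the 2-cell embryo, was at least 35.2-fold higher (adjusted p = 0.000133). Upp1, uridine phosphorylase, was at least 39.4-fold higher (adjusted p = 0.0001). Among genes above background in both groups, Tubb5, a beta tubulin, differed by 5.77 ± 0.27 (adjusted p = 6.66e-06) and Hat1, which acetylates new histones, by 5.50 ± 0.39 (adjusted p = 3.19e-05). Large falls included Pgam2, the muscle form of phosphoglycerate mutase (-5.33 ± 0.35, adjusted p = 2.41e-05), and Smarca2, the remodelling ATPase Brm (-4.23 ± 0.61, adjusted p = 0.000764).

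The 2 EB samples were not alike. They differed at least 4-fold in 82 of 9742 genes, against 18 for the adult samples, with median differences of 0.28 and 0.30 on the log2 scale. Genes in the next sentences were chosen for that difference after their values were seen, so it is given with no test. Ttr, transthyretin, a plasma carrier protein made in visceral endoderm and liver, read 6.9 and 6.62 in EB replicate 1, 3.24 and 2.36 in EB replicate 2 and 8.83 and 9.54 in adult tissue. Igf2, the imprinted growth factor, read 6.92 and 7.25 in EB replicate 1 and 4.19 and 4.75 in EB replicate 2, and EB replicate 2 alone overlapped the adult values of 4.37 and 4.79 (1.20, adjusted p = 0.391). Lama1, a laminin chain, read 8.45 and 8.35 in EB replicate 1, 6.17 and 6.09 in replicate 2, and 2.82 and 2.89 in adult tissue, so it was higher in both (at least 18.3-fold, adjusted p = 0.000809). Acta1, skeletal actin, lay at 6.58 and 3.71 in the EB samples around adult values of 5.92 and 5.68 (-0.65, adjusted p = 0.606).

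The visceral endoderm markers summed to 195 in EB replicate 1, 65 in EB replicate 2, and 691 and 989 in adult tissue, where Sox17 had a usable value only in adult replicate 1. Their part in these differences was not tested.

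Other genes were higher in EB replicate 2. Tnc, the matrix protein tenascin C, read 2.72 and 1.77 in EB replicate 1, 7.36 and 7.16 in EB replicate 2 and 6.9 and 6.41 in adult tissue. Postn, periostin, lay at the floor on both arrays of EB replicate 1 and at 6.24 and 6.28 in EB replicate 2. Col3a1 read 1.98 and 1.77 in EB replicate 1, 5.12 and 5.54 in EB replicate 2 and 10.62 and 10.48 in adult tissue, where it was higher in the test (-6.95 ± 1.69, adjusted p = 0.00902). Col3a1 no longer passed without adult replicate 1 (adjusted p = 0.0772) or adult replicate 2 (adjusted p = 0.0785). Irf7, an interferon-induced factor, read 2.38 and 1.77 in EB replicate 1, 5.72 and 5.75 in EB replicate 2 and 8.16 and 8.48 in adult tissue. Of 7 feeder fibroblast markers, 4 were on no EB array, and their summed intensity was 39 in EB replicate 1, 213 in EB replicate 2, and 1730 and 1595 in the adult samples. The part of carried-over feeder cells in these values was not tested.

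**Figure D5:**
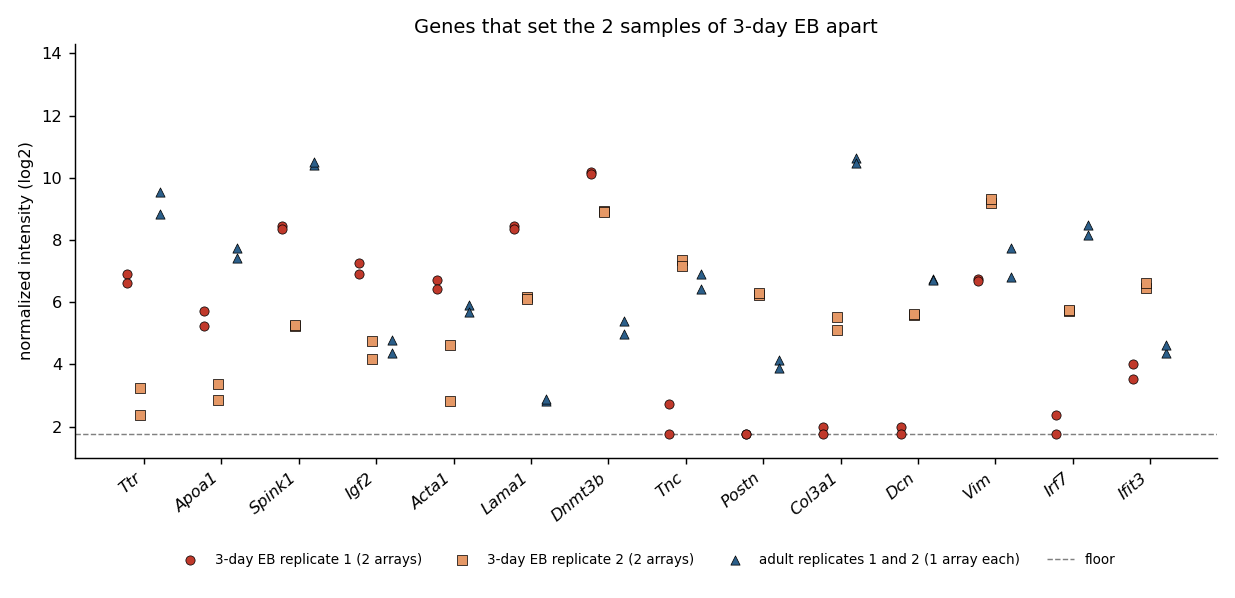
Log2 normalized intensity of 14 genes chosen for their difference between the 2 samples of 3-day EB, with the adult arrays beside them. Ttr, Apoa1, Spink1, Igf2, Acta1, Lama1 and Dnmt3b lie higher in EB replicate 1 (circles), and Tnc, Postn, Col3a1, Dcn, Vim, Irf7 and Ifit3 in EB replicate 2 (squares); the 2 arrays of each sample lie close together for most genes.

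Parent stem cells (1 sample) and 7-day EB (2 samples) were set against the same 2 adult samples, so these differences share controls and are given side by side only. Pou5f1 differed by 4.52 in 3-day EB, 5.26 in stem cells and 4.61 in 7-day EB. Fgfbp1, a carrier of fibroblast growth factors, differed by 3.11 in 3-day EB (adjusted p = 0.000506, 1 adult array above background), by -0.31 in stem cells and by 0.92 in 7-day EB. Rhox5 differed by 4.59, 2.52 and 6.05 in the same order, and Igf2 by 1.20, -1.39 and 4.04. Col6a2 differed by -5.08 in 3-day EB, -1.53 in stem cells and -6.00 in 7-day EB. Tdh (6.45, 6.54 and 6.04) and Mcm3 (4.50, 4.58 and 4.76) had near values in all 3. None of these side-by-side differences was tested.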

How the data were processed

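Each array came as a scanner file. The deposited raw intensity of each spot was used; per the file headers, the files come from version 4.1.0.29054 of the scanner's software. Values below 0 show that background had been subtracted. The authors' normalized intensity column and the deposited value table (also intensity) served as alternatives. For the adult arrays that table holds other values than the scanner files (Spearman 0.973 and 0.989), and the authors' step behind them is not given in the sources used here. The normexp step was not applied because background was already removed.

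Spots with a scanner mark against their quality were left out, the 12 arrays of the product were quantile-normalized, and values under the median negative control (3.42) were raised to it (1.77 on the log2 scale). Arrays of a sample were averaged. Of 19758 gene probes, 15855 carried 1 symbol (12100 by accession, 3406 by platform tables that can be old, 349 by description), 51 several and 3852 none. The brightest probe stood for a gene. Of 500 genes with several tested probes, 293 were called and 71 of these had a probe of opposite sign, none of them a gene named by the rule.

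Differences were fitted over 7 samples, so that the stem cell and 7-day EB samples shared the estimate of spread, with the lmFit and eBayes functions of limma 3.58.1 under R 4.3.3 (p adjusted by Benjamini-Hochberg over all genes, 3 residual degrees of freedom, prior 4.26). The labels do not say that replicates were separate cultures or animals, so the p-values reflect only how far these samples spread, which may be technical, and the number of arrays limits precision. On simulated data with 200 changed genes among 9742, 9% of those changed by a log2 of 1 and 93% of those changed by 2 were recovered. The data had 5990 called genes, so the adjustment was stricter in the simulation. Its shares therefore do not give the recovery in this comparison. Replicate numbers did not pair the samples (r = 0.015 across genes).

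Named genes were the 12 largest rises and falls above background in both groups, the 8 largest bounds each way, up to 4 members of smallest p per list with calls, and a fixed set; exceptions are stated, and some are left out. Members and lists were chosen with earlier results of these data known. Alternatives covered scaling, floor, filter, samples, arrays, replicates, block, probes, variance model and marked spots.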

Additional observations from a re-analysis of the deposited data

Results flagged for a closer look

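Signal was found in data outside the comparison. Of 2230 genes that were lower in 3-day EB, above background on no EB array of the comparison and present on the other product, 1336 were above background on both arrays of EB replicate 3. On that product 66.9 and 67.4% of gene spots were above background, against 27.8 to 33.3% on the EB arrays of the comparison, and no adult sample was measured on it. Whether the dimmer EB arrays set the falls of these genes was not tested. No group held enough samples for a search for outlying samples.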

How the results depend on the processing

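The count of 5990 genes moved to 3060 when only genes above background on every array of both groups were tested, which leaves 4565 genes, and the count of lower genes moved to 689. The count of higher genes (2790) moved to 1678 after median centring, 1698 with the authors' normalized intensity and 1455 with the deposited value table. With arrays centred on probes above background in both groups, chosen after seeing the data, it was 1928, with 3847 lower. The other alternatives kept these counts within 1.5 times. Leaving out each replicate gave 4901 to 5423 genes, 2282 to 2459 higher and 2606 to 2964 lower; the lone sample left in a group is then assumed to vary like the others. With the replicate block, on 3-day EB and adult samples only, 6165 genes passed (2776 higher, 3389 lower). Of 213 named genes 207 passed. The value table reversed Acvr2b (-0.11), Spry1 (-0.46), Gsc (-0.31) and Actb (-0.05). Gata4 reversed after median centring (-0.26), with the authors' normalized intensity (-0.25), the value table (-0.19) and centring on probes above background in both groups (-0.12). Leaving out replicates, Igf2 ran between -0.11, without EB replicate 1, and 2.51, and Acta1 between -2.09 and 0.78, without EB replicate 2. Igf2 passed under the block (adjusted p = 0.0399) and Gapdh under 75th percentile scaling (1.42, adjusted p = 0.00276), with each array as a sample, with limma-trend and with the added centring. Gsc no longer passed under the block (0.69, adjusted p = 0.0697), and 211 named genes kept their side of the threshold there; the numbers did not pair the samples. The cause was not tested. The EB arrays lay close to background, which limits every fall to a bound where the gene was on no EB array.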
